A study of Mus musculus with 10 samples.

Results

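The genes described here encode the subunits of the receptors for glutamate, GABA, glycine and acetylcholine (nicotinic type), and they were measured in mouse neural stem cells with and without the chromatin remodeller Atrx. They were chosen by symbol: every gene of the table named as a subunit of an AMPA, kainate, NMDA, delta or metabotropic glutamate receptor, a GABA-A or GABA-B receptor, a glycine receptor or a nicotinic acetylcholine receptor. The rule found 67 of 21101 genes. It also matched Grin1os, a non-coding transcript that overlaps Grin1 on the opposite strand. The strand setting of the counting is not given in the sources used here, so reads of Grin1 and Grin1os may not be separable. All cells lacked p53 and had been transduced with the mutant enzyme IDH1(R132H), controls included. The 2 control lines were Control NSC#1 and Control NSC#2, and the 3 Atrx-deleted lines were mA16d#4, mA19d#4 and mA19d#7. By the titles each line gave 2 libraries. Of these, 1 came from cells kept proliferating with 20 ng/ml of both EGF and bFGF (proliferation medium). The other came from cells held for 8 days in neural basal medium with B27 but without growth factors (differentiation medium). Each medium therefore had 2 control and 3 Atrx-deleted libraries. The labels used here do not say how Atrx was removed or whether each line is a single clone, and 2 of the Atrx-deleted lines share the stem mA19d. The sample codes in the labels begin alike in the 4 control libraries and differently in the 6 Atrx-deleted ones. The labels do not explain these codes, so whatever they record cannot be told apart from the genotype.

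Ionotropic receptors are ion channels opened by a transmitter and are built from several subunits, so that the mixture of subunit transcripts limits which receptors a cell can make. AMPA, kainate and NMDA receptors pass cations in response to glutamate, GABA-A and glycine receptors pass chloride, and nicotinic receptors pass cations in response to acetylcholine. Metabotropic glutamate and GABA-B receptors act through G proteins instead. Neural progenitors and glia also carry several of these receptors, among them the metabotropic receptor encoded by Grm5 and GABA-A receptors with the subunit encoded by Gabrg1.

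Levels are given in TPM (a gene's share of all transcripts after correction for its length), so that levels of different genes can be compared. Differences are on the log2(TPM + 1) scale with their standard error (SE), and adjusted p-values are Benjamini-Hochberg values from limma over the 15660 genes that reached 1 TPM in 2 or more libraries. A gene is said to have risen or fallen where its adjusted p was below 0.05. The labels do not say that libraries of a group came from independent derivations. The p-values rest on the spread between libraries within the 4 groups, pooled and drawn toward a trend over all genes. Each line entered this fit in both media without a term for the line. The p-values therefore do not measure the spread between independent derivations. Atrx checks the labels: it was at 163 and 149 TPM in the control lines in proliferation medium and at 71.6, 42.8 and 74.0 TPM in the Atrx-deleted lines. The differentiation values were 128 and 127 TPM against 54.4, 47.2 and 54.0 TPM. It fell in both media, by 1.34 and by 1.28 (adjusted p = 0.0390 and 0.0204), and remained detectable in every Atrx-deleted library. The stem cell markers Sox2, at 364 to 705 TPM, and Nes, at 245 to 753 TPM, were high in all 10 libraries. Other stem cell markers were lower and varied more, with Sox1 at 10.8 to 135 TPM and Prom1 at 0.937 to 25.96 TPM. Among neuronal markers Map2 was at 358 to 903 TPM and Tubb3 at 50.1 to 372 TPM. In proliferation medium Dcx was at 2.28 TPM in Control NSC#2 and at 33.7 TPM in mA16d#4. Stmn2 did not exceed 0.324 TPM and Rbfox3 did not exceed 12.7 TPM. Summed levels of 6 microglial genes lay between 0.129 and 8.15 TPM, and of 6 endothelial and mural genes between 2.63 and 5.26 TPM.

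The library labelled mA19d#7 in differentiation medium stood apart. Over the 42 tested receptor genes its rank correlation was 0.900 with mA16d#4 in proliferation medium and 0.861 with mA16d#4 in differentiation medium, but 0.623 with mA19d#7 in proliferation medium. Over all tested genes the same 3 values were 0.957, 0.938 and 0.926. These libraries share a normalisation, and the values describe likeness only. Gfap, an intermediate filament gene of astrocytes, was at 1411 TPM in that library and at no more than 79.5 TPM in the other 9. The library was kept under its label, and some of the results that rest on it are also given without it.

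The promoters of 3 genes are shown because they belong to the gene that rose in Atrx-deleted lines (Chrna4), the gene that rose with the medium in control lines (Grik3) and the gene with the widest gap between Atrx-deleted lines (Gria4). Each run spans an annotated transcript start, most of it upstream, from RefSeq on GRCm38.p6, 5′ to 3′ on the gene's own strand, with CpG dinucleotides in capitals. They lie at chr2:181039128-181039427 (minus strand), chr4:125490446-125490745 (plus strand) and chr9:4796185-4796484 (minus strand).
Chrna4: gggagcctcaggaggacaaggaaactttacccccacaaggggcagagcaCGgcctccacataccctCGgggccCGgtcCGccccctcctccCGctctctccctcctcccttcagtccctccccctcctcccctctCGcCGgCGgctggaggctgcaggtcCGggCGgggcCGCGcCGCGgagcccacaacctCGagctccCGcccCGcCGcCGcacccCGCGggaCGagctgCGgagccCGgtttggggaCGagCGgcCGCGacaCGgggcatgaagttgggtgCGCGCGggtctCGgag
Grik3: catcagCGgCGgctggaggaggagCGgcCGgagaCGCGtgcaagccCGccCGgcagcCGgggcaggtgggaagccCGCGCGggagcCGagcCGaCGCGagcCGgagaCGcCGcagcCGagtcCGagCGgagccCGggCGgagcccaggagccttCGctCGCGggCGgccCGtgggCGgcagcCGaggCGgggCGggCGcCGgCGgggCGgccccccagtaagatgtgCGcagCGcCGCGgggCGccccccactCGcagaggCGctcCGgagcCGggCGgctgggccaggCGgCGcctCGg
Gria4: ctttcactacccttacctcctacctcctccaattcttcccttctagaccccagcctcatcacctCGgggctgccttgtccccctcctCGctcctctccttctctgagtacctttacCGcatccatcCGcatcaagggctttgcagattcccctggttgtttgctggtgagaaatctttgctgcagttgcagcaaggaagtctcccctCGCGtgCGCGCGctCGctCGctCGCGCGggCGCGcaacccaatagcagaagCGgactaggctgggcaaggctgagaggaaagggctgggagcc
The Grik3 window held 50 CpG dinucleotides, the Chrna4 window 33 and the Gria4 window 17, and their GC contents were 82.0%, 74.3% and 59.7%. Promoters were found for 48 of the 67 genes, in 56 windows. The 38 windows of tested receptor genes held a median of 12.5 CpG dinucleotides, and 18 of them (47.4%) held at least 15. The 18 windows of receptor genes that did not pass the filter held a median of 8.5, and 4 of them (22.2%) held at least 15. Over all 32851 promoters of the table the median was 7, and 34.6% held at least 15. Short motifs were also searched on both strands. TTCAGCACC, the left part of the RE1 element that the neuronal gene repressor REST binds, was found in 1 of the 56 windows, that of Grm2, and in 0.371% of all promoters. The right part of that element was found in 0 of the 56 and in 0.137% of all promoters. TATAAA was found in 5 of the windows of tested receptor genes (13.2%) and in 13.6% of all promoters, and the cyclic AMP response element TGACGTCA in 1.79% of all promoters and in no receptor window. These are matches of letters only.

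Of the 67 genes, 18 had at least 1 TPM in all 10 libraries, 33 in some of them and 16 in none. The filter kept 42, and 25 were too low to test. A library held 30 to 37 receptor genes at 1 TPM or above, and their summed level ran from 499.8 TPM (mA16d#4, proliferation) to 819 TPM (Control NSC#2, differentiation). The heatmap shows that each class was carried by a few genes. The 10 highest means over all libraries belonged to Gabbr1 (73.4 TPM), Gria2 (54.2), Grm3 (51.1), Grik3 (50.8), Grik5 (48.5), Gabrg1 (44.8), Chrna4 (44.5), Grm5 (42.5), Grid1 (37.4) and Glrb (34.3 TPM). Subunits that dominate synaptic receptors of mature neurons were low: Grin2a did not exceed 1.503 TPM and Glra1 did not exceed 0.307 TPM. Values below 0.25 TPM are not ranked here, since 32.8% of the table's values in that range lay within 0.02 (log2) of the value in the next row, against 0.566% of values at or above 1 TPM. In these bulk libraries, fewer cells of a type and less RNA per cell cannot be told apart.

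**Figure D1:**
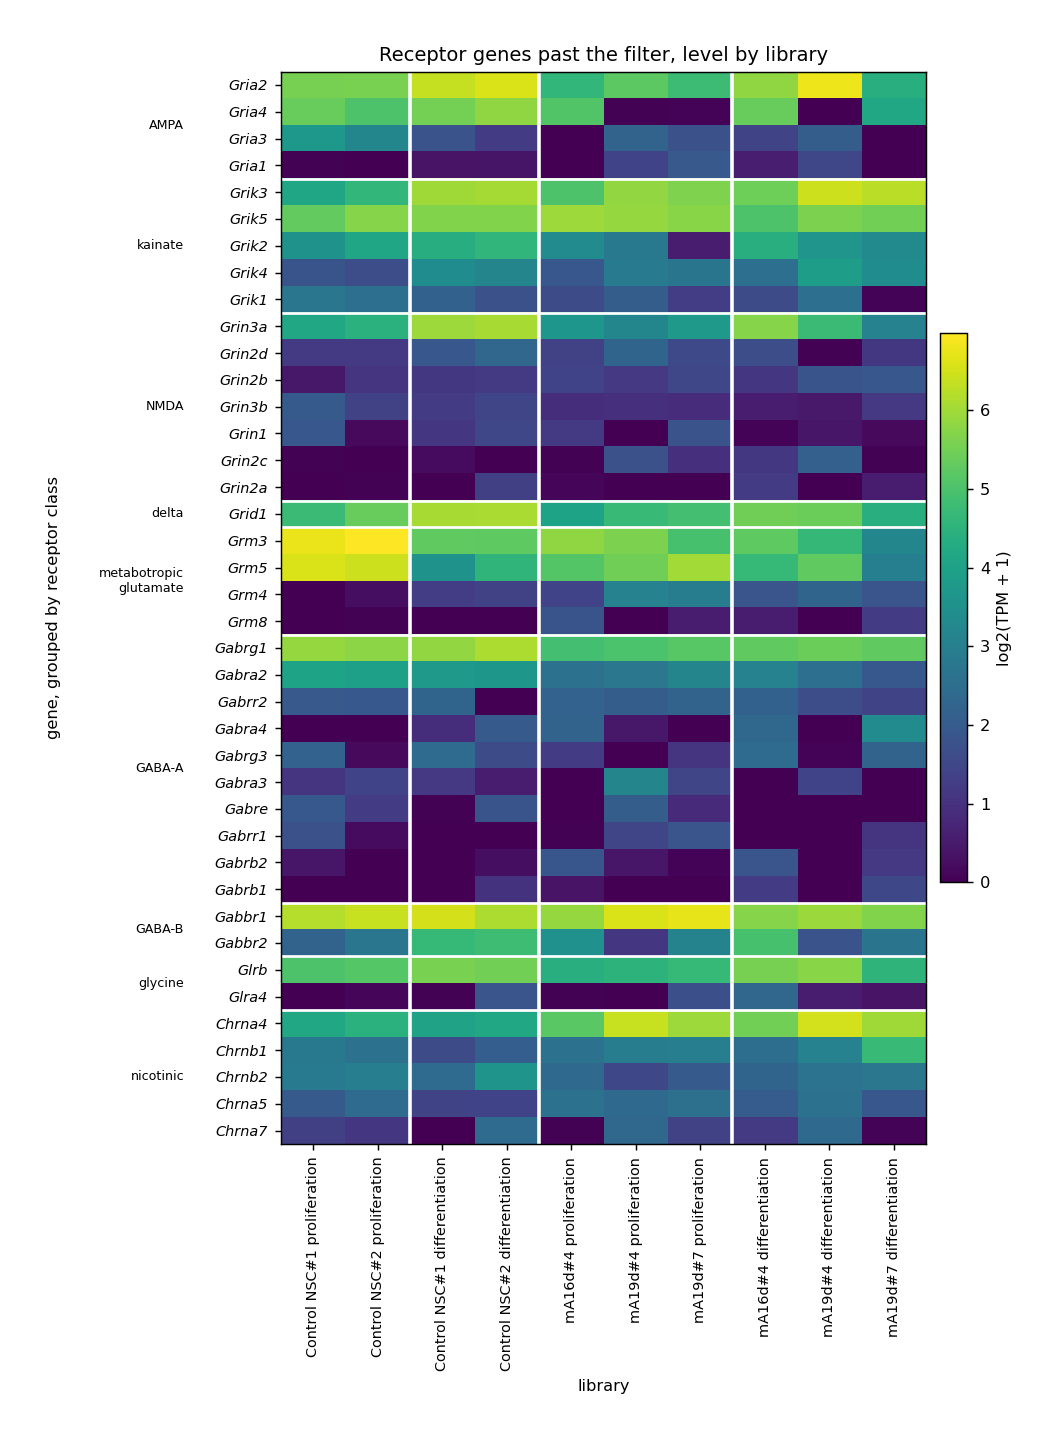
Level of 40 of the 42 receptor genes that passed the filter (rows, grouped by receptor class) in the 10 libraries (columns, white lines between the 4 groups); colour gives log2(TPM + 1). Grm3 and Grm5 were brightest in the control lines in proliferation medium, Chrna4 was brighter in the Atrx-deleted lines, and Gria4 was near 0 in mA19d#4 in both media and in mA19d#7 in proliferation medium.

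Few receptor genes passed the test in any comparison. Between Atrx-deleted and control lines in proliferation medium 0 of 42 did, where 0.460% of all tested genes did; 10 had an unadjusted p below 0.05 in limma (13.7% of all genes), and in 21 the libraries of the groups did not overlap (38.0% of all genes). In differentiation medium 1 did, Chrna4, where 2.89% of all genes did; 8 had an unadjusted p below 0.05 (20.2% of all genes) and 17 did not overlap (36.3%). From proliferation to differentiation medium 1 of 42 changed in the control lines, Grik3, where 4.51% of all genes did (2 with the cell line as a block, Grik3 and Grm3); 9 had an unadjusted p below 0.05 (19.9%) and 25 did not overlap (61.3%). In the Atrx-deleted lines 0 changed with the medium, where 0.0830% of all genes did; 6 had an unadjusted p below 0.05 (14.8%) and 3 did not overlap (16.5%). For the difference of these medium responses, the interaction, 0 of 42 passed, where 0.00639% of all genes did, and 3 had an unadjusted p below 0.05 (7.02% of all genes). Median differences of the 42 genes were 0.09 and -0.27 between genotypes in proliferation and differentiation medium, against -0.02 and 0.02 over all genes. They were 0.22 in control and 0.21 in Atrx-deleted lines for the medium, against -0.01 and 0.01 over all genes. The 2 genotype comparisons share no library, but each shares its libraries with the medium comparisons.

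Without the library labelled mA19d#7 in differentiation medium more genes passed. Gabrg1 and Grm3 passed between genotypes in proliferation medium (1.59% of all genes did), and Chrna4 alone in differentiation medium (5.97%). Grik3, Grin3a, Grm3 and Grm5 passed for the medium in control lines (9.24%), Glrb, Gria2 and Grin3a for the medium in Atrx-deleted lines (2.22%), and 0 for the interaction (0.0192%).

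AMPA receptors carry most fast excitatory transmission, and the subunit encoded by Gria2 makes them impermeable to calcium once its transcript is edited. Gria2 was at 45.6 and 47.0 TPM in the control lines in proliferation medium and at 80.9 and 94.2 TPM in differentiation medium. In the Atrx-deleted lines mA16d#4, mA19d#4 and mA19d#7 it was at 23.8, 36.5 and 26.5 TPM in proliferation medium and at 55.9, 112 and 19.8 TPM in differentiation medium. All Atrx-deleted libraries were below all control libraries in proliferation medium, and the groups overlapped in differentiation medium. The differences between genotypes were -0.68 (SE 0.53, adjusted p = 0.621) and -0.79 (SE 0.53, adjusted p = 0.437). The medium difference of Gria2 in Atrx-deleted lines was 0.79 (adjusted p = 0.476) with all libraries and 1.44 (adjusted p = 0.0395) without the library labelled mA19d#7 in differentiation medium.

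Gria4, which encodes a rapidly gating AMPA subunit, split the Atrx-deleted lines. Control libraries held 40.2 and 31.6 TPM in proliferation medium and 44.97 and 55.0 TPM in differentiation medium. The line mA16d#4 held 33.0 TPM in proliferation medium, between the controls, and 40.3 TPM in differentiation medium, below both. The line mA19d#4 held 0.0223 and 0.00562 TPM, and mA19d#7 held 0.0534 TPM in proliferation medium but 17.0 TPM in the library labelled as its differentiation sample. Gria4 therefore had the largest mean difference of the receptor genes in proliferation medium, -3.46, with an SE of 1.65 and an adjusted p of 0.389. In differentiation medium the difference was -2.48 (SE 1.65, adjusted p = 0.431). The remaining AMPA genes were low. Gria3 was at 12.1 and 8.15 TPM in control lines in proliferation medium, above the 0.00547, 3.66 and 2.29 TPM of the Atrx-deleted lines, a difference of -2.14 (SE 0.72, adjusted p = 0.234). In control lines it was at 2.45 and 1.31 TPM in differentiation medium (-1.95, SE 0.79, adjusted p = 0.195). Gria1 exceeded 1 TPM in 3 libraries, mA19d#4 in both media (1.67 and 1.82 TPM) and mA19d#7 in proliferation medium (2.84 TPM).

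These levels gave different mixtures of subunit transcripts. Gria2 was 46.6% and 54.2% of summed AMPA subunit TPM in the control lines in proliferation medium and 62.9% and 62.4% in differentiation medium. The share was 87.2% and 95.7% in mA19d#4 and 83.6% in mA19d#7 in proliferation medium, against 41.9% and 56.8% in mA16d#4. The library labelled mA19d#7 in differentiation medium, at 53.8%, lay with mA16d#4.

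**Figure D2:**
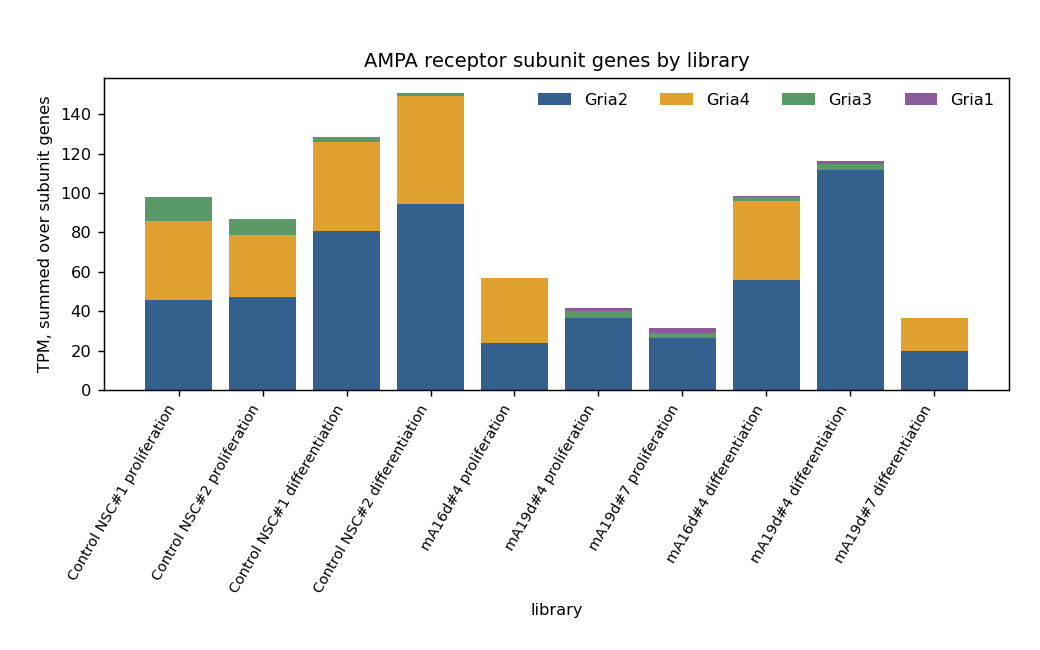
Summed TPM of the 4 AMPA subunit genes (vertical axis) in each of the 10 libraries (horizontal axis), with the part of each gene stacked in colour. Gria4 (orange) was visible in both media in the control lines and mA16d#4, and was absent from both mA19d#4 libraries and from the mA19d#7 proliferation library.

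Kainate receptors modulate release and excitability; Grik1 to Grik3 encode the low-affinity and Grik4 and Grik5 the high-affinity subunits. Grik3 was at 16.3 and 23.7 TPM in control lines in proliferation medium (20.0 ± 5.24, SD, n = 2) and at 62.0 and 65.3 TPM in differentiation medium (63.7 ± 2.31, SD, n = 2). It rose by 1.64 (SE 0.36, adjusted p = 0.0320). Grik3 in the Atrx-deleted lines was at 31.6, 56.7 and 48.3 TPM in proliferation medium and at 42.5, 86.1 and 75.4 TPM in differentiation medium, a difference of 0.55 (SE 0.29, adjusted p = 0.419). Each of the 3 Atrx-deleted proliferation libraries was already above both control libraries (1.13, SE 0.33, adjusted p = 0.172), and each line was higher in differentiation medium. The difference between the 2 medium responses was -1.10 (SE 0.46, adjusted p = 0.670). The call for Grik3 was lost without any 1 of the 4 control libraries (adjusted p = 0.286 and 0.0858 without Control NSC#1 or #2 in proliferation medium, 0.172 and 0.169 in differentiation medium). The same held without mA19d#7 in proliferation medium (0.0518), without the filter on low values (0.0817) and without the variance trend (0.0582).

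No other kainate gene passed the test with all 10 libraries in the fit. Grik5 was the steadiest high gene of the class, at 31.9 to 61.7 TPM over all libraries. Grik5 in Atrx-deleted lines was at 61.7, 57.2 and 52.9 TPM in proliferation medium and at 31.9, 47.3 and 44.1 TPM in differentiation medium, with no overlap (-0.49, SE 0.19, adjusted p = 0.268). Grik4 was at 2.51 and 2.14 TPM in control lines in proliferation medium and at 9.42 and 7.99 TPM in differentiation medium (1.54, SE 0.48, adjusted p = 0.102, and 0.0378 with only the 4 control libraries in the fit). It was higher in differentiation medium in all 3 Atrx-deleted lines too, which ran from 2.75 to 6.39 TPM and then from 4.86 to 14.0 TPM. Grik2 was at 10.997 and 16.2 TPM in control lines in proliferation medium, and at 9.32, 6.08 and 0.480 TPM in the Atrx-deleted lines (-1.59, SE 0.69, adjusted p = 0.347). Its medium difference in Atrx-deleted lines was 1.51 (SE 0.62, adjusted p = 0.292), with mA19d#7 moving from 0.480 to 8.91 TPM. Grik1 stayed at or below 5.64 TPM.

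NMDA receptors need the subunit encoded by Grin1, with glutamate bound by a GluN2 subunit (Grin2a to Grin2d); Grin3a and Grin3b encode subunits that bind glycine. Here Grin1 did not exceed 2.74 TPM and was below 0.25 TPM in 4 libraries. Grin3a made up 48.5% to 89.2% of the summed TPM of the NMDA genes, with the non-coding Grin1os counted in that sum. Grin3a was at 17.2 and 21.1 TPM in control lines in proliferation medium and at 61.7 and 66.1 TPM in differentiation medium (1.70, SE 0.64, adjusted p = 0.165). The Atrx-deleted lines held 11.7, 8.14 and 12.7 TPM in proliferation medium and at 51.3, 26.1 and 7.47 TPM in differentiation medium. Every Atrx-deleted library was below every control library of its medium, with differences of -0.78 (SE 0.58, adjusted p = 0.603) and -1.50 (SE 0.58, adjusted p = 0.186). Without the library labelled mA19d#7 in differentiation medium Grin3a rose with the medium in control lines (1.70, adjusted p = 0.0153). In the remaining Atrx-deleted libraries it rose by 1.69 (adjusted p = 0.0322). The genotype difference of Grin3a in differentiation medium was then -0.78 (adjusted p = 0.174). Grin2d, the second highest by mean, was at 1.28 TPM in both control lines in proliferation medium and at 2.71 and 3.98 TPM in differentiation medium. The Atrx-deleted lines held 1.60, 3.74 and 1.88 TPM and then at 2.13, 0.0233 and 1.17 TPM, and the difference of the responses was -1.70 (SE 0.72, adjusted p = 0.670). Grin2b stayed between 0.367 and 2.75 TPM.

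The delta receptor gene Grid1 encodes a relative of the ionotropic receptors that organises synapses through secreted cerebellins. Grid1 was at 26.1 and 39.9 TPM in control lines in proliferation medium and at 65.9 and 67.7 TPM in differentiation medium (1.03, SE 0.39, adjusted p = 0.172). Its Atrx-deleted values were 15.5, 25.6 and 28.7 TPM and then at 43.0, 41.4 and 20.2 TPM. The groups did not overlap in differentiation medium (-0.99, SE 0.36, adjusted p = 0.158).

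Among metabotropic receptors, Grm5 couples to phospholipase C and Grm3 inhibits adenylyl cyclase; both are known in astrocytes and progenitors. Together they were 72.3% to 99.97% of summed metabotropic TPM. That sum was 203 and 212 TPM in control lines in proliferation medium and 50.3 and 64.6 TPM in differentiation medium. In Atrx-deleted lines it was 94.3, 98.97 and 102 TPM in proliferation medium and 65.3, 68.7 and 21.1 TPM in differentiation medium. Grm5 was at 94.4 and 86.3 TPM in control lines in proliferation medium and at 10.7 and 22.5 TPM in differentiation medium (-2.46, SE 0.62), with an adjusted p of 0.0539, just above the threshold. Grm5 in the Atrx-deleted lines was at 33.9, 43.5 and 64.1 TPM and then at 24.8, 37.8 and 7.08 TPM (-1.21, SE 0.51, adjusted p = 0.305), with the steepest drop in the library labelled mA19d#7.

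Grm3 was also highest in the control lines in proliferation medium. It was at 109 and 125 TPM in control lines in proliferation medium and at 38.1 and 36.7 TPM in differentiation medium (-1.62, SE 0.53, adjusted p = 0.116). In Atrx-deleted lines it was at 55.5, 47.4 and 30.002 TPM in proliferation medium, below both controls (-1.42, SE 0.49, adjusted p = 0.239), and at 37.2, 23.9 and 8.20 TPM in differentiation medium. Both genes were lower in differentiation medium in all 5 lines. Without the library labelled mA19d#7 in differentiation medium, Grm5 (adjusted p = 0.00682) and Grm3 (0.0124) fell with the medium in control lines. Grm3 was then also lower in Atrx-deleted than in control lines in proliferation medium (adjusted p = 0.0382). Grm4 went the other way between genotypes: 0.00561 and 0.202 TPM in control lines in proliferation medium against 1.63, 7.56 and 6.77 TPM in Atrx-deleted lines (2.35, SE 0.51, adjusted p = 0.0843). In differentiation medium its libraries lay between 1.42 and 3.74 TPM, with both controls lowest. Grm8 exceeded 1 TPM in 2 libraries, mA16d#4 in proliferation medium (2.52 TPM) and the library labelled mA19d#7 in differentiation medium (1.37 TPM).

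**Figure D3:**
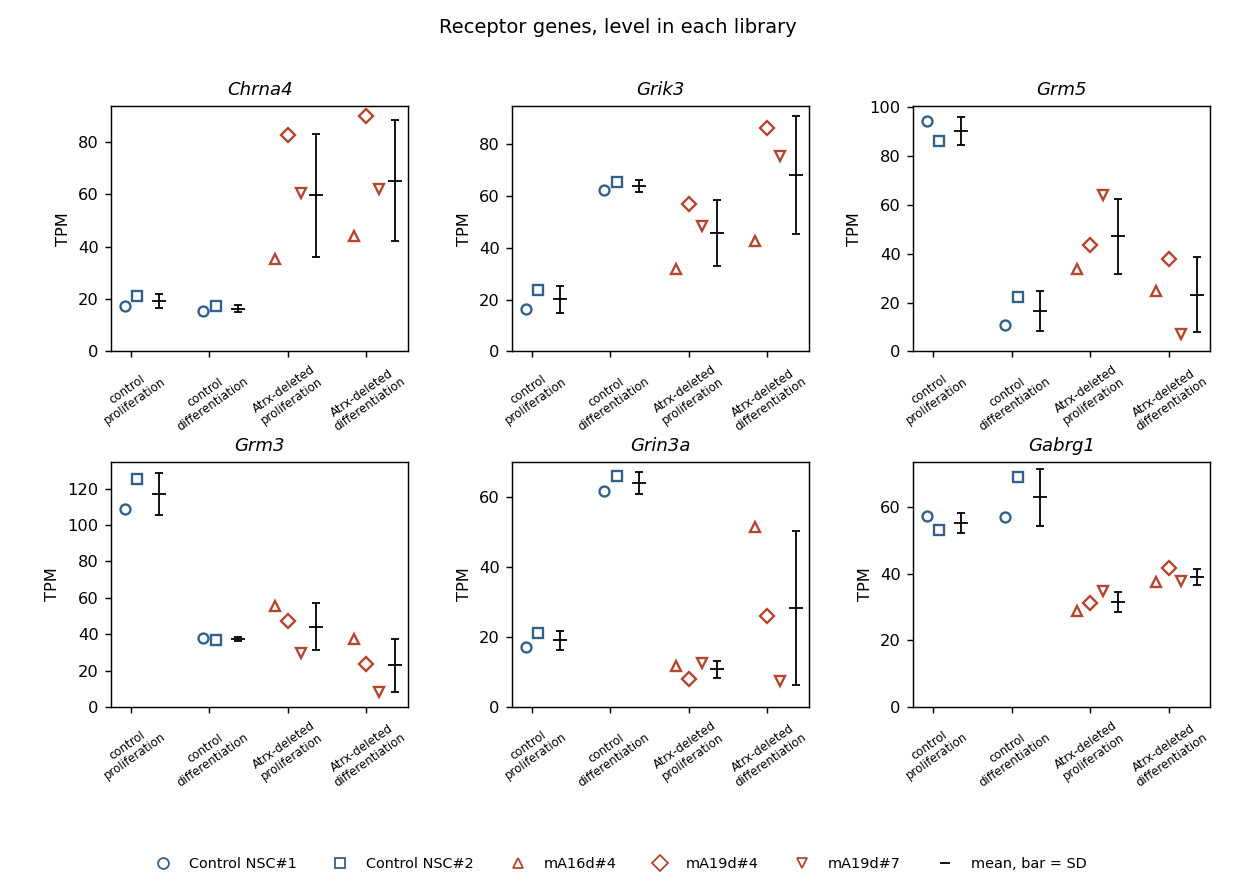
TPM (vertical axes, from 0) of 6 receptor genes in each library by group (horizontal axes), with a symbol for each line and, beside the points, the mean with its SD (n = 2 for control and n = 3 for Atrx-deleted groups). Chrna4 was higher in every Atrx-deleted library than in any control library in both media, Grm3 and Grm5 were highest in the control lines in proliferation medium, and Gabrg1 was lower in all Atrx-deleted libraries.

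GABA-A receptors are pentamers, most often of alpha, beta and gamma subunits. The gene with the highest mean was Gabrg1, whose subunit is typical of glia and of a few neuron types. Gabrg1 was at 57.2 and 53.1 TPM in control lines in proliferation medium against 28.9, 31.2 and 34.8 TPM in Atrx-deleted lines (-0.79, SE 0.17, adjusted p = 0.0823). In differentiation medium it was at 56.8 and 68.9 TPM against 37.4, 41.6 and 37.9 TPM (-0.67, SE 0.17, adjusted p = 0.0609). All 6 Atrx-deleted libraries were below all 4 control libraries, at about the same distance in both media (difference of the differences 0.12, SE 0.24). In proliferation medium the adjusted p of Gabrg1 was 0.0447 without the library labelled mA19d#7 in differentiation medium, and in differentiation medium it was 0.0453 without the filter on low values.

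Gabra2, an alpha subunit gene next to Gabrg1 on chromosome 5, was also lower in every Atrx-deleted library. It was at 15.5 and 14.3 TPM in control lines against 5.18, 5.86 and 8.12 TPM in proliferation medium (-1.13, SE 0.36, adjusted p = 0.216). In differentiation medium it was at 12.8 and 12.02 TPM against 7.57, 4.85 and 2.82 TPM (-1.22, SE 0.36, adjusted p = 0.0993). Both genes lie in a cluster (Gabrg1 at chr5:70751047-70842617 and Gabra2 at chr5:70957597-71095849) with Gabra4 and Gabrb1, which did not share the pattern. Gabra4 was below 0.25 TPM in both control lines in proliferation medium and reached 9.32 TPM in the library labelled mA19d#7 in differentiation medium, and Gabrb1 did not exceed 1.85 TPM. As a share of summed GABA-A subunit TPM, Gabrg1 was 57.6% to 62.4% in the control libraries and 34.2% to 55.3% in the Atrx-deleted ones.

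GABA-B receptors pair the GABA-binding product of Gabbr1 with the G-protein-coupling product of Gabbr2. Gabbr1, the highest receptor gene by mean, was at 49.5 to 104 TPM. In differentiation medium it was at 91.1 and 68.8 TPM in control lines against 51.6, 60.1 and 49.5 TPM in Atrx-deleted lines (-0.56, SE 0.25, adjusted p = 0.243). Its partner was much lower and varied more. Gabbr2 was at 3.70 and 5.69 TPM in control lines in proliferation medium and at 24.7 and 27.2 TPM in differentiation medium (2.26, SE 0.97, adjusted p = 0.224). The Atrx-deleted lines held 10.6, 1.14 and 7.70 TPM and then at 29.9, 2.48 and 5.40 TPM, so that mA16d#4 lay with the controls in differentiation medium and the others below (-1.61, SE 0.88, adjusted p = 0.341).

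Glycine receptors combine alpha subunits (Glra1 to Glra4) with the beta subunit of Glrb, which anchors them to gephyrin. Glrb alone was 90.6% to 99.8% of summed glycine receptor TPM, and Glra1, Glra2 and Glra3 were below 1 TPM in all 10 libraries. Glrb was at 31.6 and 34.4 TPM in control lines in proliferation medium and at 46.3 and 43.9 TPM in differentiation medium. Its Atrx-deleted values were 20.2, 21.8 and 24.6 TPM and then at 45.7, 52.8 and 22.1 TPM. The 2 lines mA16d#4 and mA19d#4 were higher in differentiation medium and the library labelled mA19d#7 was not (0.74, SE 0.28, adjusted p = 0.261, and 1.12, adjusted p = 0.0213, without that library). Glra4 exceeded 1 TPM in 3 libraries, with 3.95 TPM in mA16d#4 in differentiation medium as the highest.

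Nicotinic receptors were represented mainly by Chrna4, which encodes an alpha subunit of the high-affinity nicotine receptor of brain and lies at chr2:181018380-181043546 on the minus strand. Chrna4 was at 17.4 and 21.01 TPM in control lines in proliferation medium (19.2 ± 2.58, SD, n = 2) and at 35.4, 82.7 and 60.6 TPM in Atrx-deleted lines (59.6 ± 23.7, SD, n = 3). In differentiation medium it was at 15.4 and 17.2 TPM (16.3 ± 1.27, SD, n = 2) and at 44.0, 89.9 and 61.9 TPM (65.3 ± 23.2, SD, n = 3). The lowest Atrx-deleted library was above the highest control library in both media. Chrna4 rose in Atrx-deleted lines in differentiation medium, by 1.88 (SE 0.36, adjusted p = 0.0262), and the difference in proliferation medium was 1.51 (SE 0.36, adjusted p = 0.109). The 2 differences were not shown to differ from each other (0.37, SE 0.51, adjusted p = 0.933). The call was lost without either control line in proliferation medium (adjusted p = 0.0514 and 0.0518), without Control NSC#1 or #2 in differentiation medium (0.240 and 0.129) and without mA19d#4 in differentiation medium (0.0515). It was also lost without the filter on low values (0.0731) and with only the 5 differentiation libraries in the fit (0.131).

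Chrna4 was 45.6% to 55.6% of summed nicotinic TPM in control libraries and 63.9% to 82.8% in Atrx-deleted ones. Chrnb2, the usual partner of Chrna4 in brain receptors, was low in all libraries. It was at 6.33 and 6.89 TPM in control lines and at 4.21, 1.87 and 2.93 TPM in Atrx-deleted lines in proliferation medium (-0.97, SE 0.42, adjusted p = 0.347). In differentiation medium it was at 4.39 and 11.1 TPM against 3.79, 5.28 and 5.82 TPM. Chrnb1, the beta subunit gene of the muscle receptor, was at 2.03 and 3.23 TPM in control lines in differentiation medium. Its Atrx-deleted values were 4.78, 7.58 and 24.9 TPM (1.60, SE 0.54, adjusted p = 0.135). The value of 24.9 TPM came from the library labelled mA19d#7. Without that library the difference of Chrnb1 was 0.98 (adjusted p = 0.129). Chrna5 was at 1.69 and 1.63 TPM in control lines in differentiation medium against 3.07, 5.202 and 2.74 TPM (0.77, SE 0.35, adjusted p = 0.2501). Of the 16 nicotinic genes 11 did not pass the filter, and 7 of the 16 were below 1 TPM in every library.

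Most genes around Chrna4 differed in the same direction. Of the 47 other tested genes within 1000 kb, 43 (91.5%) were higher in Atrx-deleted lines in proliferation medium, with a median difference of 0.81, and 41 (87.2%) in differentiation medium, with a median of 0.72. The test was passed by 2 of them in proliferation medium and by 10 in differentiation medium, where 0.460% and 2.89% of all tested genes passed. Around 21 other receptor genes with at least 10 tested neighbours, the median difference of the neighbours was between -0.25 and 0.21 in proliferation medium and between -0.41 and 0.37 in differentiation medium. The medium shifted the neighbours of Chrna4 less, with medians of 0.12 in control and -0.03 in Atrx-deleted lines. The shift was not confined to the 1000 kb window. From -9 to -6 Mb of the upstream end of Chrna4, medians per Mb in proliferation medium were 0.86, 0.72 and 1.08. There 7 of 9, 6 of 6 and 6 of 7 genes were higher. In differentiation medium these medians were 0.24, 0.50 and 0.66. The shift was not continuous: medians from -3 to -2 Mb were -0.15 and -0.47 in the 2 media. The 1 gene from -6 to -5 Mb differed by -1.19 and 0.16. The 1000 kb window was chosen after these values had been seen, and neighbouring genes are not independent of each other. The part of the neighbourhood in the rise of Chrna4 was not tested.

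**Figure D4:**
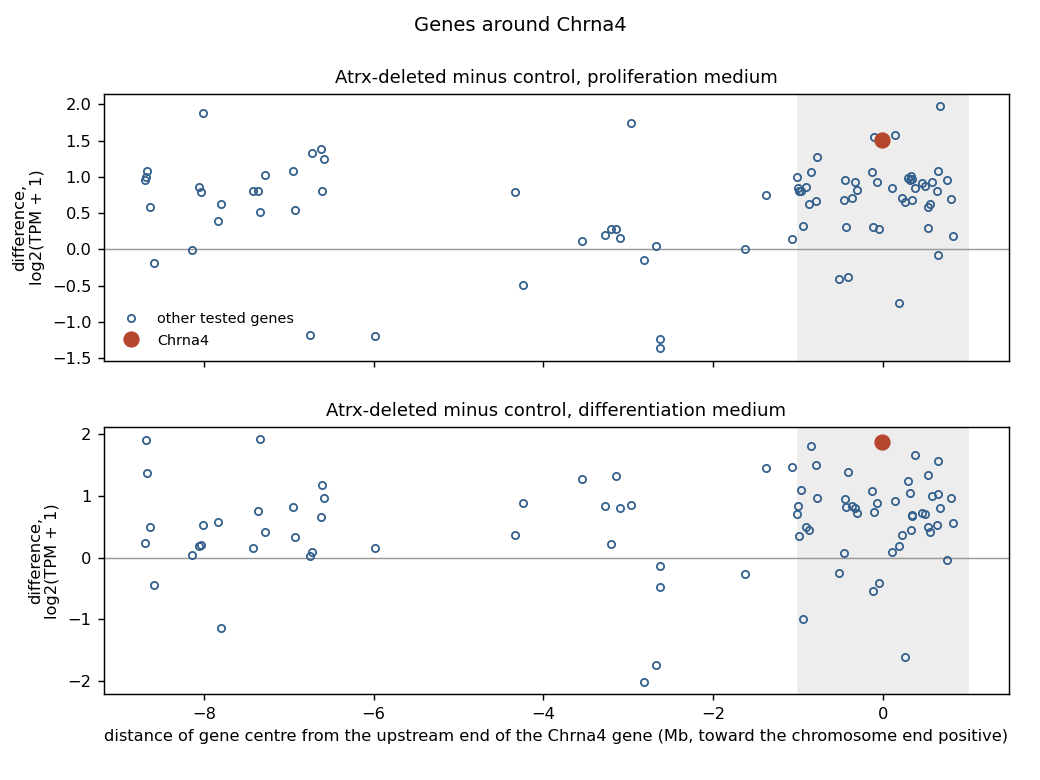
Difference between Atrx-deleted and control lines in log2(TPM + 1) (vertical axes) for each tested gene (open circles) by distance in Mb of its centre from the upstream end of Chrna4 (horizontal axis), in proliferation medium (top) and differentiation medium (bottom); the filled circle is Chrna4 and the grey band spans 1000 kb on either side. Within the band 43 of 47 genes lay above 0 in proliferation medium and 41 of 47 in differentiation medium.

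Receptor genes differed between the Atrx-deleted lines themselves. The median SD within a group was 0.172 and 0.177 for the 42 receptor genes in the control groups in proliferation and differentiation medium (0.148 and 0.141 over all genes). In the Atrx-deleted groups it was 0.457 and 0.670 (0.264 and 0.353 over all genes). In proliferation medium 14 of 42 receptor genes (33.3%) were at 1 TPM or above in 1 Atrx-deleted line and below 0.25 TPM in another, against 8.05% of all tested genes. Between the 2 control lines 3 of 42 (7.14%) did so, Grin1, Gabrr1 and Gabrg3, against 3.30% of all genes. A group of 3 lines offers more pairs than a group of 2, so these shares are not on the same footing. The 14 genes were Gria1, Gria3, Gria4, Grin1, Grin2c, Grm8, Gabra3, Gabra4, Gabrb2, Gabre, Gabrg3, Gabrr1, Glra4 and Chrna7. Gabra3, for example, was at 8.12 TPM in mA19d#4 and 1.76 TPM in mA19d#7 in proliferation medium and below 0.25 TPM in mA16d#4, and Gabrb2 was at 2.67 TPM in mA16d#4 and below 0.25 TPM in mA19d#7. Only Gria4 and Gria3 of these genes were above 5 TPM in both control lines in proliferation medium. In 12 of the 14 the library labelled mA19d#7 in differentiation medium was nearest to mA16d#4 among the 3 Atrx-deleted proliferation libraries. The exceptions were Gabrr1 and Grin1. The 14 genes were picked because they differ between these lines, and the same share over all genes was not computed. Some placings rest on values below 0.25 TPM. Glra4 was at 0.291 TPM in that library, and below 0.25 TPM in mA16d#4 and mA19d#4 in proliferation medium.

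The response to the medium had the same sign in all 5 lines for 9 receptor genes. In each line 6 were higher in differentiation medium, among them Gabrg3, Grik2, Grik3 and Grik4 (14.3% of the 42, against 11.2% of all tested genes). Gabrr1, Grm3 and Grm5 were lower in each line (7.14%, against 10.4%). Gabrr1 was below 0.25 TPM in both media in Control NSC#2 and mA16d#4, as was Gabrg3 in mA19d#4. Their signs in these lines carry no weight. Libraries were paired by label, and the one labelled mA19d#7 in differentiation medium was included. Chrna4 was the only receptor gene lower in both control lines and higher in all 3 Atrx-deleted lines, with changes no larger than 0.31 in size; 4.36% of all genes were opposite by genotype.

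Genes that serve these receptors were examined in 7 lists. Of all 15660 tested genes 305 rose and 401 fell with the medium in control lines. Of 13 tested auxiliary subunits of AMPA and kainate receptors 1 rose with the medium in control lines and 0 changed in any other comparison. That gene was Shisa9, an auxiliary subunit of AMPA receptors, at 9.47 and 23.1 TPM in proliferation and 113 and 117 TPM in differentiation medium (2.87, SE 0.36, adjusted p = 0.00532). In Atrx-deleted lines Shisa9 was at 19.4, 34.8 and 30.5 TPM and then at 48.5, 45.7 and 48.0 TPM (0.77, SE 0.30, adjusted p = 0.274). The call for Shisa9 was lost without Control NSC#1 in proliferation medium (0.0771) or either control library in differentiation medium (0.0747 and 0.0538). Cacng5, which encodes a further AMPA receptor partner and was chosen after its values were seen, was at 3.90 and 5.55 TPM in control lines in proliferation medium against 54.3, 12.4 and 23.3 TPM (2.21, SE 1.02, adjusted p = 0.376). In differentiation medium Cacng5 was at 0.839 and 2.24 TPM against 42.0, 8.93 and 210 TPM (4.20, SE 1.02, adjusted p = 0.0571), with no overlap in either medium and the highest value in the library labelled mA19d#7. Neto1, an auxiliary subunit of kainate receptors chosen in the same way, was at 53.4 and 44.7 TPM in control lines in proliferation medium and at 11.2 and 14.9 TPM in differentiation medium (-1.84, SE 0.46, adjusted p = 0.0501). Cacng2 and Cacng3, which encode AMPA receptor partners of neurons, were below 0.25 TPM in all libraries. Of 17 tested scaffold genes 0 passed in any comparison. In differentiation medium 13 of the 17 were lower in Atrx-deleted lines (7619 of all 15660 tested genes were), with a median difference of -0.42. Homer3 and Dlgap4, the 2 with the highest means, were at 74.3 to 131 TPM and 43.2 to 65.0 TPM.

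Of 13 tested genes of glutamate transport and metabolism 2 rose with the medium in control lines and 0 fell. Over all 15660 tested genes 305 rose and 401 fell. The median difference of the 13 genes was 0.83. Slc1a2, the main glial glutamate transporter, was at 40.7 and 65.7 TPM in proliferation and at 421 and 372 TPM in differentiation medium (2.91, SE 0.51, adjusted p = 0.0150). In the Atrx-deleted lines it was at 34.4, 24.2 and 58.7 TPM and then at 297, 98.4 and 115 TPM (2.00, SE 0.42, adjusted p = 0.0946). Slc1a3, the second glial transporter, rose in control lines from 620 and 688 TPM to 1541 and 1518 TPM (1.23, SE 0.28, adjusted p = 0.0370). Both calls were lost without any 1 of the 4 control libraries (0.0563 to 0.185 for Slc1a2, 0.146 to 0.297 for Slc1a3), and that for Slc1a3 also without mA19d#4 or mA19d#7 in proliferation medium (0.0645 and 0.0581). Without the filter on low values their adjusted p were 0.0565 and 0.0884, and with the cell line as a block that of Slc1a3 was 0.0749. No gene of the list passed between genotypes. The vesicular transporter gene Slc17a6, which loads glutamate in many neurons, was below 0.25 TPM in all libraries. The other vesicular glutamate transporter genes were not all absent. Slc17a7 did not exceed 1.76 TPM. Slc17a8 was at 1.03 and 1.38 TPM in control lines in proliferation medium and at 8.96 and 7.57 TPM in differentiation medium. In Atrx-deleted lines Slc17a8 was at 2.22, 0.506 and 0.896 TPM and then at 1.76, 0.430 and 3.46 TPM. The list shares Slc1a2 with the astrocyte markers used here.

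Of 9 tested genes of GABA and glycine synthesis and transport 3 fell in Atrx-deleted lines in differentiation medium and 0 rose. Of all 15660 tested genes 209 fell and 243 rose. Of the 9 genes 8 were lower, where 7619 of all tested genes were. Their median difference was -1.12 against 0.02 over all genes. In control lines 3 rose with the medium and 0 fell (305 and 401 of all tested genes), with a median of 1.20. The same 3 genes, Slc6a9, Abat and Aldh5a1, made up both counts, and the 2 comparisons share the control libraries in differentiation medium. Slc6a9, the glial glycine transporter that also sets glycine at NMDA receptors, was at 70.0 and 81.3 TPM in control lines in proliferation medium and at 32.5, 31.7 and 28.0 TPM in Atrx-deleted lines. It was at 237 and 188 TPM in control lines in differentiation medium and at 34.6, 45.9 and 34.0 TPM in Atrx-deleted lines. All 6 Atrx-deleted libraries were below all 4 control libraries. It fell in both media, by 1.27 (SE 0.19, adjusted p = 0.0251) and by 2.45 (SE 0.19, adjusted p = 0.000413). It rose with the medium in control lines (1.47, SE 0.21, adjusted p = 0.00677) and differed by 0.29 in Atrx-deleted lines (SE 0.17, adjusted p = 0.458). The difference of these responses was -1.18 (SE 0.27, adjusted p = 0.331). Leaving out any 1 library kept the call for Slc6a9 in differentiation medium (adjusted p between 0.00111 and 0.0251). With only the 5 differentiation libraries in the fit its adjusted p was 0.0566. In proliferation medium the call was lost without any 1 of the 4 control libraries (0.0525 to 0.279) or any 1 of the 3 Atrx-deleted proliferation libraries (0.0554 to 0.0980), without the filter (0.0507) and without the variance trend (0.0656). The medium call of Slc6a9 in control lines was lost without Control NSC#1 in proliferation medium (0.122) or either control library in differentiation medium (0.0855 and 0.0538).

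Abat and Aldh5a1 encode the successive enzymes that break GABA down. Abat was at 319 and 362 TPM in control lines in proliferation and at 992 and 979 TPM in differentiation medium (1.53, SE 0.24, adjusted p = 0.00993). Abat in Atrx-deleted lines was at 255, 288 and 268 TPM and then at 526, 317 and 334 TPM, lower than in control lines in differentiation medium by 1.37 (SE 0.22, adjusted p = 0.0160). Aldh5a1 was at 48.9 and 57.0 TPM and then at 123 and 123 TPM in control lines (1.20, SE 0.26, adjusted p = 0.0292). In Atrx-deleted lines it was at 43.1, 46.4 and 55.3 TPM and then at 74.1, 58.2 and 40.6 TPM (-1.12 against control lines in differentiation medium, SE 0.23, adjusted p = 0.0361). The GABA transporter gene Slc6a11, chosen after its values were seen, was at 1067 and 992 TPM in control lines in differentiation medium and at 116, 548 and 39.1 TPM in Atrx-deleted lines (-2.91, SE 0.86, adjusted p = 0.0991). Slc32a1, the vesicular transporter of GABA and glycine, and Slc6a5, the neuronal glycine transporter, were below 0.25 TPM in all libraries. Of the genes of GABA synthesis, Gad2 did not exceed 0.339 TPM, but Gad1 was present. Gad1 was at 5.98 and 9.90 TPM in control lines in proliferation medium and at 25.2 and 31.8 TPM in differentiation medium. In Atrx-deleted lines Gad1 was at 1.36, 3.82 and 8.67 TPM and then at 7.11, 11.4 and 3.71 TPM. The genotype call for Abat was lost without Control NSC#1 or Control NSC#2 in differentiation medium (adjusted p = 0.170 and 0.110) and with only the 5 differentiation libraries in the fit (0.157). That for Aldh5a1 was lost without any 1 of the 4 control libraries (0.0648 to 0.259), mA19d#4 in proliferation medium (0.0631) or mA19d#4 in differentiation medium (0.0574). It was also lost without the filter (0.0736), without the variance trend (0.0645) and with only the 5 differentiation libraries (0.183), and 11 of 20 alternatives kept it. The medium calls of both genes in control lines were lost without any 1 of the 4 control libraries (0.0537 to 0.150 for Abat, 0.104 to 0.259 for Aldh5a1), and that of Aldh5a1 also without mA19d#4 in proliferation medium (0.0504), without the filter (0.0643), without the variance trend (0.0568) and with the cell line as a block (0.0685).

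**Figure D5:**
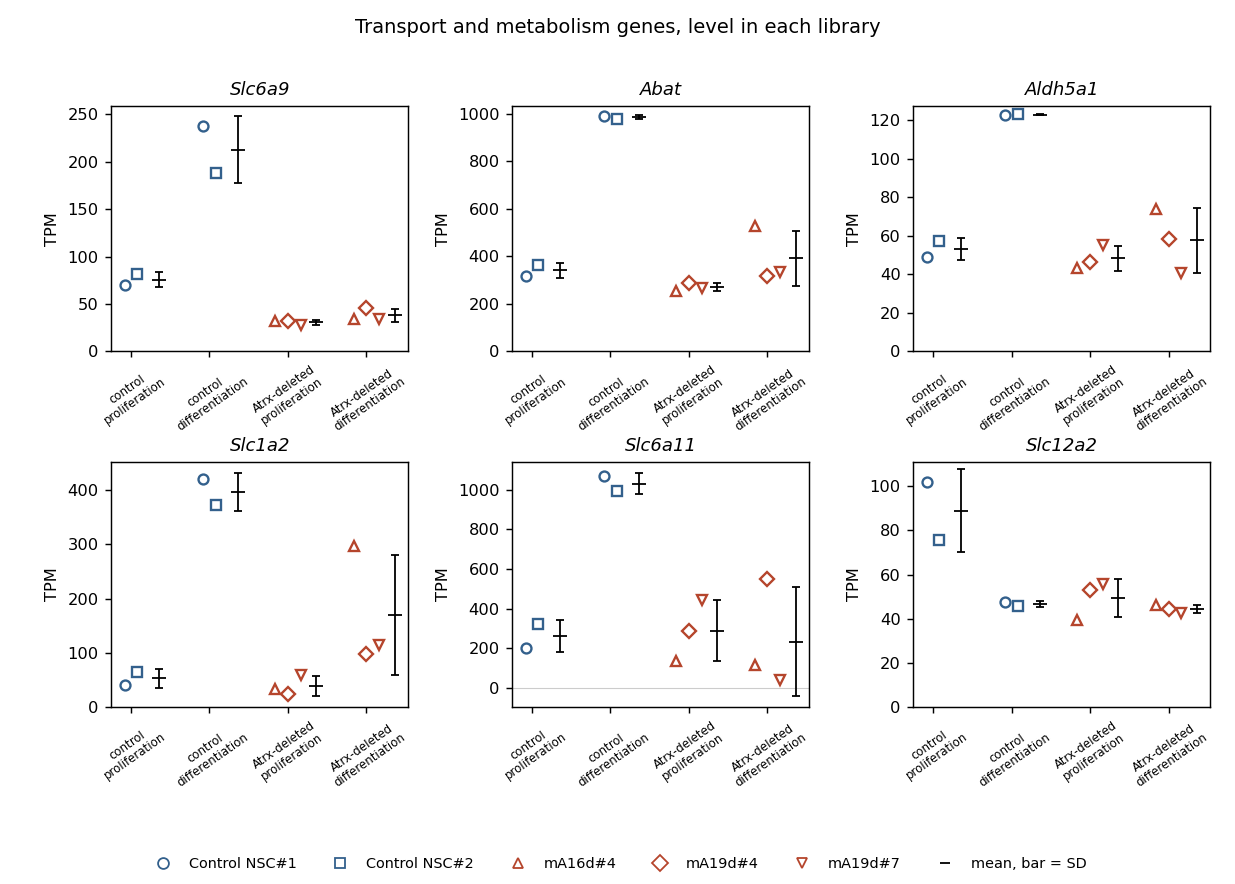
TPM (vertical axes; the axis of Slc6a11 extends below 0 only for its SD bar) of 6 transport and metabolism genes in each library by group (horizontal axes), with a symbol for each line and the mean with its SD beside the points (n = 2 for control and n = 3 for Atrx-deleted groups). Slc6a9 was at 28.0 to 45.9 TPM in the 6 Atrx-deleted libraries, and Abat and Aldh5a1 were highest in the control lines in differentiation medium.

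Scaffolds of inhibitory receptors held 13 tested genes, of which 2 fell in Atrx-deleted lines in differentiation medium and 0 changed elsewhere. In that comparison 209 of all 15660 tested genes fell. Clptm1, whose product limits the delivery of GABA-A receptors to the surface, was at 143 and 143 TPM in control lines against 73.5, 73.0 and 93.1 TPM (-0.84, SE 0.16, adjusted p = 0.0292). Of 9 genes of chloride transport, which sets the sign of GABA-A and glycine responses, Clcn2 fell in the same comparison: it was at 28.7 and 21.9 TPM in control lines against 9.63, 11.4 and 10.4 TPM (-1.19, SE 0.24, adjusted p = 0.0333). The calls for Clptm1 and Clcn2 were lost without any 1 of the 4 control libraries (adjusted p = 0.0514 to 0.245 for Clptm1 and 0.0634 to 0.303 for Clcn2) and without mA16d#4 in differentiation medium (0.0590 and 0.0634). The call for Clcn2 was also lost without mA19d#4 in proliferation medium (0.0557), and that for Clptm1 without mA19d#4 in differentiation medium (0.0541) and without the variance trend (0.0606). With only the 5 differentiation libraries in the fit both were lost (0.163 for Clptm1 and 0.175 for Clcn2). Slc12a2, the chloride importer of immature cells, fell with the medium in control lines, from 102 and 75.5 TPM to 47.5 and 45.7 TPM (-0.90, SE 0.21, adjusted p = 0.0428), and this call was lost without any 1 of the 4 control libraries (0.0800 to 0.349), mA19d#4 or mA19d#7 in proliferation medium (0.0658 and 0.0555) or mA16d#4 in differentiation medium (0.0524). It was also lost without the filter (0.0604), without the variance trend (0.0739) and with the cell line as a block (0.0751). Of 12 tested cholinergic partner genes 2 fell with the medium in control lines, where 401 of all 15660 tested genes did. They were Chrm3, a muscarinic receptor (9.34 and 9.17 TPM to 2.55 and 1.84 TPM, -1.69, SE 0.35, adjusted p = 0.0271), and Bche, a cholinesterase (179 and 164 TPM to 61.4 and 60.8 TPM, -1.47, SE 0.30, adjusted p = 0.0236). Both calls were lost without any 1 of the 4 control libraries (0.124 to 0.220 for Chrm3, 0.103 to 0.217 for Bche), that for Chrm3 also with the cell line as a block (0.0685) and that for Bche without the filter (0.0651). The vesicular acetylcholine transporter Slc18a3 and the choline transporter Slc5a7 were below 0.25 TPM in all libraries.

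Markers of cell state moved with these comparisons. Of all 15660 tested genes, 243 rose and 209 fell in Atrx-deleted lines in differentiation medium. With the medium in control lines 305 rose and 401 fell. In differentiation medium the summed level of 8 astrocyte genes was 7896 to 8896 TPM in control lines and 2471 to 4955 TPM in Atrx-deleted lines. Of the 8 genes 4 were lower and 4 higher in Atrx-deleted lines, and 1 fell. That gene was Apoe, which carried most of the sum in control lines, at 5423 and 6640 TPM against 1451, 977 and 955 TPM. Gfap was at 4.65 and 1.57 TPM in control lines against 79.5, 3.49 and 1411 TPM, and Aqp4 at 7.21 and 2.75 TPM against 19.2, 3.93 and 86.0 TPM. The summed level of 6 cycling genes was 204 to 216 TPM in control lines and 389 to 841 TPM in Atrx-deleted lines, and 4 of the 6 rose. In control lines 4 of these 6 cycling genes fell and 2 of the 8 astrocyte genes rose from proliferation to differentiation medium. The summed level of 8 neuronal genes was 814 to 843 TPM in control and 428 to 1211 TPM in Atrx-deleted lines in differentiation medium, and 1 of the 7 tested fell. The sum over 8 genes of the oligodendrocyte lineage was 1531 to 1593 TPM in control and 674 to 1900 TPM in Atrx-deleted lines in differentiation medium, and 2 of the 8 fell. The lists overlap in Slc1a2. The part of these markers in the differences of receptor and transporter genes was not tested.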

How the data were processed

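RNA was taken from 5 mouse neural stem cell lines in 2 media with an RNeasy kit and made into libraries with a TruSeq RNA kit, per the labels' protocols. Reads were aligned with STAR to mm10, per the submitters' processing notes; for versions, annotation, quantifier and strand setting, nothing is given in the sources used here. The values are log2 TPM as deposited by the authors. All 10 libraries hold the same sorted values (lowest -8, at 1213 genes each; 997524 TPM per library after back-transformation), so they were quantile-normalised before deposit. Sequencing depth is unknown, no counting error can be given, and a shift in total expression cannot be seen. A test of linear TPM had been planned. The deposited values were therefore turned back into TPM, and limma 3.58.1 in R 4.3.3 was run on log2(TPM + 1) with the trend option and 4 group means over 10 libraries (6 residual degrees of freedom). Differences on this scale understate changes of low genes.

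Genes at 1 TPM or more in at least 2 libraries entered the fit, and p-values were adjusted by the Benjamini-Hochberg method over all of them in each of 5 comparisons. Named genes were every receptor gene past the threshold, the 2 of highest mean in each class, the 3 of largest difference in each comparison where the higher group reached 1 TPM on average, and, for each partner list, up to 3 called genes per direction or else the 2 highest. Further genes named in the text were chosen after their values were seen, and some genes that the rule names are left out of the text. The members, lists and rules were chosen with earlier results of these data known. The code was tested on simulated data. Same-titled libraries in the 2 media were taken to be the same cell line, so a fit with the line as a block was an alternative. Deviations from the group means correlated with r = 0.159 for mA16d#4, 0.404 for mA19d#4, -0.194 for mA19d#7 and 0.0624 for the control lines. Other alternatives were pseudocounts, filters, the variance trend, the groups fitted, the deposited log2 values tested directly, a floor at 0.25 TPM and each library left out; 3 of them (the deposited values, the floor, and the block with mA19d#7 left out) were chosen after the data had been seen. Gene positions are from GENCODE M21 and promoters from RefSeq, both on GRCm38 (mm10).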

Additional observations from a re-analysis of the deposited data

How the results depend on the processing

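Of 989 values recomputed for 47 pairs of named gene and comparison, 0 changed sign. The number of receptor genes past the threshold moved as follows. Between genotypes in proliferation medium it was 0, and 1 with a pseudocount of 0.1 TPM (Grm4). In differentiation medium it was 1, and 0 with only the groups compared in the fit. The count does not show which gene passed: without the filter on low values Chrna4 lost its call and Gabrg1 passed. Chrna4 passed in 13 of 20 alternatives in this comparison. For the medium in control lines it was 1. It became 2 with a pseudocount of 5 TPM (Grik3 and Grm5), 0 without the filter, 0 without the variance trend, and 8 with only the groups compared. With the cell line as a replicate block it was 2 (Grik3 and Grm3), and 10 with the block and without mA19d#7. For the medium in Atrx-deleted lines it was 0, and 3 with the block and without mA19d#7 (Glrb, Gria2 and Grin3a). Leaving out 1 library at a time gave 0 to 2, 0 to 1, 0 to 4 and 0 to 3 genes in these comparisons, and 0 to 0 for the interaction. Over all genes the count between genotypes in differentiation medium was 452, 2 with only the groups compared and 935 without the library labelled mA19d#7. For the medium in control lines it was 706, and 487 with the block, 2080 with only the groups compared, and 6 to 1447 when 1 library was left out. The cause of these shifts was not tested. The block could be fitted only to the media comparisons and the interaction. The groups hold 2 and 3 libraries, and the unknown depth limits what can be said of genes below 0.25 TPM.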
